A study of Mesocricetus auratus with 24 samples.

Results

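The 10 genes described here are canonical markers of microglia, namely Aif1, Csf1r, Cx3cr1, Tmem119, P2ry12, C1qa, C1qb, C1qc, Trem2 and Tyrobp, out of 19938 genes measured in the inferior colliculus (IC) of hamsters. They were taken by name from the annotation of the array, and each of the 10 was read by 1 probe set that carried no other symbol. In the hamster gene annotation 9 of the 10 are named, and Tyrobp is not. The IC is the auditory midbrain nucleus in which audiogenic seizures start. Its total RNA was read on whole-transcript arrays designed for mouse, 1 for each of 24 animals aged 16 weeks. The 6 stimulated GASH:Sal and 6 naive GASH:Sal hamsters belonged to a strain with inherited seizures evoked by loud sound. The 6 stimulated Syrian and 6 naive Syrian hamsters were the control strain without that trait. Stimulated animals of both strains heard the same sound and gave tissue 60 min later, and the label of each naive animal, as the study calls them, lists no exposure. The treatment note given with all 24 samples speaks of stimulation alone and does not mention unstimulated animals, so the naive groups rest on the exposure label and the sample titles. For other hamsters of these strains, the study reports that stimulated GASH:Sal animals convulsed and stimulated Syrian animals did not. A difference after sound in GASH:Sal may thus include effects of a seizure, which cannot be told apart from those of sound. The comparisons ask whether the transcripts of microglia in the IC differed after sound in either strain. They also ask whether these transcripts differed between the strains, without sound or after it.

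Microglia are the resident macrophages of the brain. They depend on signalling through the receptor Csf1r for survival, extend processes toward injured or very active neurons through purine and chemokine receptors, and supply most of the complement protein C1q of the brain. After seizures they are known to react, in rodents, over hours to days, with loss of surveying genes and gain of inflammatory and phagocytic ones.

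No microglia gene differed between groups past the threshold in any comparison, and the groups overlapped for all 10. With limma, 0 of the 10 genes had an adjusted p under 0.05 for stimulated minus naive GASH:Sal hamsters, for stimulated minus naive Syrian hamsters, for GASH:Sal minus Syrian hamsters after sound or without it, or for the sound response of GASH:Sal minus that of Syrian hamsters. Over all 19938 genes the call rate was 0% in each of these 5 comparisons, so the count of the microglia genes was that of the background. At an unadjusted p under 0.05 the counts were 0 of 10 for the sound response of GASH:Sal hamsters (4.46% of all genes), 1 of 10 for that of Syrian hamsters (6.64%), 1 of 10 for the strains after sound (5.42%), 0 of 10 for the strains without sound (6.02%) and 1 of 10 for the difference between responses (3.68%). Groups that did not overlap were found for 0 of the 10 genes in each comparison of 2 groups, against 0.226% of all genes for sound in GASH:Sal, 0.291% for sound in Syrian hamsters, 0.251% for the strains after sound and 0.271% for the strains without it. Averaged over both strains, the response to sound gave 0 of 10 microglia genes at an adjusted p under 0.05 (0.00502% of all genes) and 0 of 10 at an unadjusted p under 0.05 (7.39%). The strain difference averaged over both sound conditions gave 0 of 10 at an adjusted p under 0.05 (0.01%) and 0 of 10 at an unadjusted p under 0.05 (7.99%).

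The precision of these arrays set how large a difference in signal could have been missed. The 95% interval of a difference between 2 groups reached 0.16 to 0.30 log2 units to either side, depending on the gene. Between 2 groups, the farthest bounds over the 10 genes were -0.47 and 0.52 on the log2 scale, a ratio of 0.720 and of 1.43. In each of the 4 comparisons of 2 groups, a 2-fold difference in signal therefore lay outside the interval of each of the 10 genes. These bounds are of signal alone. Mouse probes read hamster RNA, and how fully a difference in transcripts shows in their signal was not tested. In whole tissue, fewer microglia and less RNA per microglial cell cannot be told apart.

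**Figure D1:**
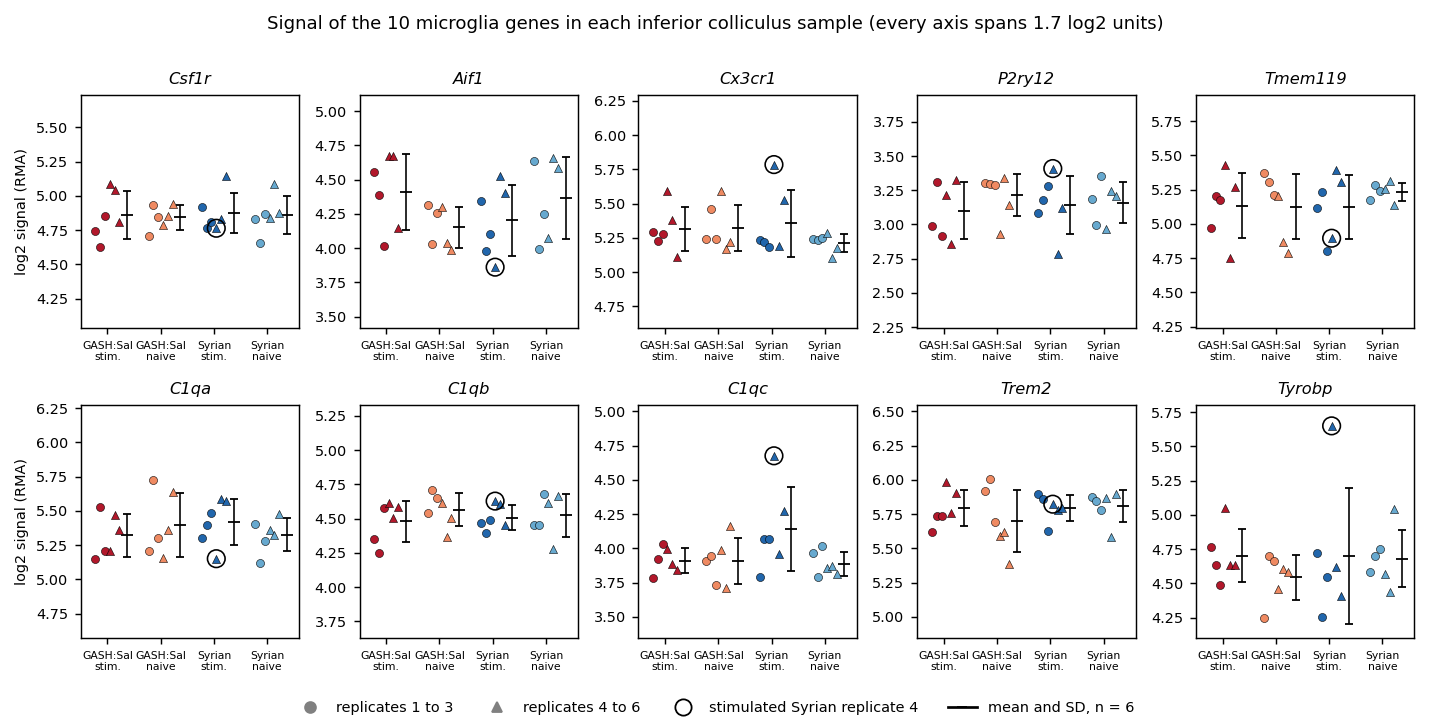
Deposited log2 signal of each of the 10 microglia genes (vertical axes) in the 24 samples, by group (horizontal axes), with circles for replicates 1 to 3, triangles for replicates 4 to 6, a ring around stimulated Syrian replicate 4, and the mean with SD beside each group. The groups overlap for all 10 genes, and the ringed sample is the highest of all 24 for Cx3cr1, P2ry12, C1qc and Tyrobp and the lowest for Aif1.

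Stimulated Syrian replicate 4 stood apart, and differences of the 10 genes printed below that moved by over 1.5 times without it are given both ways. Its mean correlation with the other 23 arrays was 0.969, the lowest of all, followed by 0.971 for naive GASH:Sal replicate 6, whereas the remaining arrays lay between 0.979 and 0.987. Tyrobp had a signal of 5.65 there, against 4.26 to 4.72 in the other 5 stimulated Syrian animals, and C1qc had 4.68, against 3.79 to 4.27. In the same array Aif1 had 3.86, against 3.98 to 4.53 in the others, so that the microglia genes did not lie on 1 side. Of all genes, 61.8% were above the mean of the other 5 stimulated Syrian animals in this array, with a median difference of 0.08, and 6 of the 10 microglia genes were, with a median of 0.09. Of markers of other cells, all 7 oligodendrocyte genes (median difference 0.11) and all 7 of choroid plexus and meninges (0.13) were above too. So were 6 of 8 astrocyte genes (0.25), 2 of 4 of oligodendrocyte precursors (0.22) and 5 of 7 of border macrophages (0.13). The counts were 4 of 6 for monocytes and neutrophils (0.10), 5 of 9 for endothelium and mural cells (0.010) and 1 of 2 for red blood cells (0.03). Only 3 of 9 neuronal genes were above (median -0.11). Of regional markers, all 5 cerebellum genes (median difference 0.58), all 8 genes of the IC and midbrain (0.29) and 2 of 3 telencephalon genes (0.02) were above. The part of these cells and regions in the values of the microglia genes was not tested.

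The signals of the microglia genes lay mostly in the lower part of the array. Their means over all 24 samples stood between the 11.7th percentile of all genes (P2ry12) and the 74.4th (Trem2), and 6 of the 10 were under the median. Mouse probes read hamster RNA, so a percentile places a signal and is not a level of expression, and no gene is set against another. Among markers of the labelled tissue, 7 of 8 genes of the IC and midbrain and 9 of 9 neuronal genes gave signals at or above the median, which likewise places the signals of these probes and does not measure the tissue. Between animals of 1 group the microglia genes varied somewhat more than most genes, with a median residual SD of 0.181 log2 units against 0.156 over all genes, and 7 of 10 were above that median. Tyrobp (97.9th percentile of SD) and Aif1 (95.4th) varied most, whereas Csf1r (percentile 21.1) and C1qb (percentile 27.7) varied least. When stimulated Syrian replicate 4 was left out, the standard error of the sound difference in Syrian hamsters was 0.11 for Tyrobp, under the 0.13 of Aif1.

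Csf1r and Aif1 are the genes by which microglia are most often counted. Csf1r encodes the receptor for the growth factors Csf1 and Il34, without which microglia do not survive. Its signal was 4.86 ± 0.18 in stimulated GASH:Sal, 4.84 ± 0.09 in naive GASH:Sal, 4.87 ± 0.15 in stimulated Syrian and 4.86 ± 0.14 in naive Syrian hamsters (SD, n = 6 each). Csf1r was the most even of the 10 genes, and its differences in the 5 comparisons lay between -0.016 and 0.016, with standard errors of 0.079 between 2 groups and 0.112 for the difference between responses. The Csf1r difference without stimulated Syrian replicate 4 was 0.050 for sound in Syrian hamsters, -0.050 for the strains after sound and -0.034 for the difference between responses.

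Aif1 encodes Iba1, a calcium-binding protein of the actin cytoskeleton that is the usual stain for microglia. Its lowest, median and highest signals were 4.02, 4.47 and 4.67 in stimulated GASH:Sal and 3.99, 4.15 and 4.31 in naive GASH:Sal hamsters. They were 3.86, 4.22 and 4.53 in stimulated Syrian and 3.99, 4.42 and 4.66 in naive Syrian hamsters. All 6 naive GASH:Sal animals were under the mean of the naive Syrian animals (4.36), yet all the ranges overlapped. The difference between stimulated and naive animals was 0.26 ± 0.13 (SE) in GASH:Sal hamsters (adjusted p = 0.999) and -0.16 ± 0.13 in Syrian hamsters (adjusted p = 0.840), where it was -0.081 without replicate 4 of the stimulated animals. The difference between these responses was 0.42 ± 0.18, with a 95% interval from 0.05 to 0.79 that left out 0 (adjusted p = 1.0), and it was the farthest from 0 of all 50 differences. It was 0.27 within replicates 1 to 3 and 0.56 within replicates 4 to 6, and without stimulated Syrian replicate 4 it was 0.34 (adjusted p = 0.997), with an unadjusted p then above 0.05. Aif1 in GASH:Sal minus Syrian hamsters was 0.21 ± 0.13 after sound (adjusted p = 0.901), or 0.12 without stimulated Syrian replicate 4, and -0.21 ± 0.13 without sound (adjusted p = 0.844). Thus the order of the strains was opposite in the 2 sound conditions, at sizes that did not pass in either.

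Cx3cr1, P2ry12 and Tmem119 mark the surveying state. Cx3cr1 is the receptor for the neuronal chemokine Cx3cl1, P2ry12 is the receptor through which microglial processes follow ADP, and Tmem119 is a membrane protein that, in the mouse brain, separates microglia from macrophages of the blood. Cx3cr1 had lowest, median and highest signals of 5.11, 5.29 and 5.59 in stimulated GASH:Sal and 5.17, 5.24 and 5.59 in naive GASH:Sal hamsters, and of 5.19, 5.23 and 5.78 in stimulated Syrian and 5.10, 5.24 and 5.28 in naive Syrian hamsters. The medians thus lay between 5.23 and 5.29, and the high values were those of few animals in 3 of the groups. The Cx3cr1 difference between stimulated and naive Syrian hamsters was 0.14 ± 0.09 (adjusted p = 0.811), and 0.06 without replicate 4 of the stimulated animals. In GASH:Sal hamsters it was -0.0075 ± 0.095 (adjusted p = 0.999).

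P2ry12, the dimmest of the 10, had a signal of 3.10 ± 0.21 in stimulated GASH:Sal, 3.22 ± 0.16 in naive GASH:Sal, 3.14 ± 0.21 in stimulated Syrian and 3.16 ± 0.15 in naive Syrian hamsters (SD, n = 6 each). Its difference between stimulated and naive animals was -0.12 ± 0.10 in GASH:Sal (adjusted p = 0.999) and -0.018 ± 0.10 in Syrian hamsters (adjusted p = 0.982), where it was -0.079 without replicate 4 of the stimulated animals. Tmem119 had 5.13 ± 0.24 in stimulated GASH:Sal, 5.13 ± 0.24 in naive GASH:Sal, 5.12 ± 0.23 in stimulated Syrian and 5.23 ± 0.07 in naive Syrian hamsters. The naive Syrian animals stood close together, between 5.14 and 5.32, whereas each of the other groups reached down to 4.80 or lower. That spread was not tested, and the mean difference of Tmem119 was -0.11 ± 0.11 both for stimulated minus naive Syrian hamsters (adjusted p = 0.881) and for GASH:Sal minus Syrian hamsters without sound (adjusted p = 0.928). The Tmem119 difference for stimulated minus naive Syrian hamsters was -0.066 without stimulated replicate 4.

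C1qa, C1qb and C1qc encode the chains of C1q, the protein that opens the classical complement cascade and tags synapses for removal, and they lie side by side in the mouse genome. C1qc had lowest, median and highest signals of 3.79, 3.91 and 4.03 in stimulated GASH:Sal and 3.71, 3.93 and 4.17 in naive GASH:Sal hamsters. It had 3.79, 4.07 and 4.68 in stimulated Syrian and 3.79, 3.86 and 4.02 in naive Syrian hamsters. In 5 of 6 stimulated Syrian animals C1qc was above the mean of the naive Syrian animals, and in all 6 stimulated GASH:Sal animals it was under the mean of the stimulated Syrian animals, while the ranges overlapped throughout.

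C1qc for stimulated minus naive Syrian hamsters differed by 0.25 ± 0.10, a ratio of 1.19 with a 95% interval from 1.03 to 1.38 (adjusted p = 0.719). Within replicates 1 to 3 it was 0.05 and within replicates 4 to 6 it was 0.46. Without stimulated Syrian replicate 4 it was 0.15 (adjusted p = 0.758). For GASH:Sal minus Syrian hamsters after sound, C1qc was -0.23 ± 0.10 (adjusted p = 0.901), with -0.06 within replicates 1 to 3, -0.39 within replicates 4 to 6, and -0.12 without that animal (adjusted p = 0.999). Both values thus came mostly from replicates 4 to 6, and without that animal both unadjusted p-values were above 0.05. In GASH:Sal hamsters the sound difference of C1qc was 0.0013 ± 0.10, and the difference between the responses was -0.25 ± 0.14 (adjusted p = 1.0), or -0.15 without stimulated Syrian replicate 4.

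The other chains had an unadjusted p above 0.05 in each of the 5 comparisons. C1qa had a signal of 5.32 ± 0.15 in stimulated GASH:Sal, 5.40 ± 0.23 in naive GASH:Sal, 5.41 ± 0.17 in stimulated Syrian and 5.33 ± 0.12 in naive Syrian hamsters (SD, n = 6 each). C1qb had 4.48 ± 0.15 in stimulated GASH:Sal, 4.56 ± 0.12 in naive GASH:Sal, 4.51 ± 0.09 in stimulated Syrian and 4.52 ± 0.16 in naive Syrian hamsters. For stimulated minus naive Syrian hamsters, C1qa gave 0.09 ± 0.10 (adjusted p = 0.895) and C1qb gave -0.017 ± 0.082 (adjusted p = 0.978), beside the 0.25 of C1qc. Without stimulated Syrian replicate 4, C1qa and C1qc both gave 0.15 and C1qb gave -0.039, so the distance between C1qa and C1qc rested on that animal.

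Trem2 is a lipid receptor of microglia, and Tyrobp (DAP12) is the adaptor through which it signals. Trem2 had a signal of 5.79 ± 0.13 in stimulated GASH:Sal, 5.70 ± 0.23 in naive GASH:Sal, 5.80 ± 0.09 in stimulated Syrian and 5.81 ± 0.12 in naive Syrian hamsters (SD, n = 6 each). The naive GASH:Sal animals spread widest, from 5.38 to 6.003, and covered the means of the other 3 groups. The Trem2 difference between stimulated and naive GASH:Sal hamsters was 0.09 ± 0.09 (adjusted p = 0.999), and that between naive GASH:Sal and naive Syrian hamsters was -0.11 ± 0.09 (adjusted p = 0.903).

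Tyrobp had lowest, median and highest signals of 4.48, 4.63 and 5.05 in stimulated GASH:Sal and 4.25, 4.59 and 4.699 in naive GASH:Sal hamsters. It had 4.26, 4.58 and 5.65 in stimulated Syrian and 4.43, 4.64 and 5.05 in naive Syrian hamsters. The 4 medians lay between 4.58 and 4.64, and a single stimulated Syrian animal, replicate 4, lay above every other sample of the series. The sign of the Syrian comparison differed with and without it. Tyrobp for stimulated minus naive Syrian hamsters was 0.019 ± 0.15 with it (adjusted p = 0.989) and -0.17 ± 0.11 without it (adjusted p = 0.784). In GASH:Sal hamsters the difference was 0.16 ± 0.15 (adjusted p = 0.999). The difference between the responses was 0.14 ± 0.21 with all samples (adjusted p = 1.0) and 0.32 ± 0.15 without that animal (adjusted p = 0.997), where its unadjusted p was under 0.05.

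**Figure D2:**
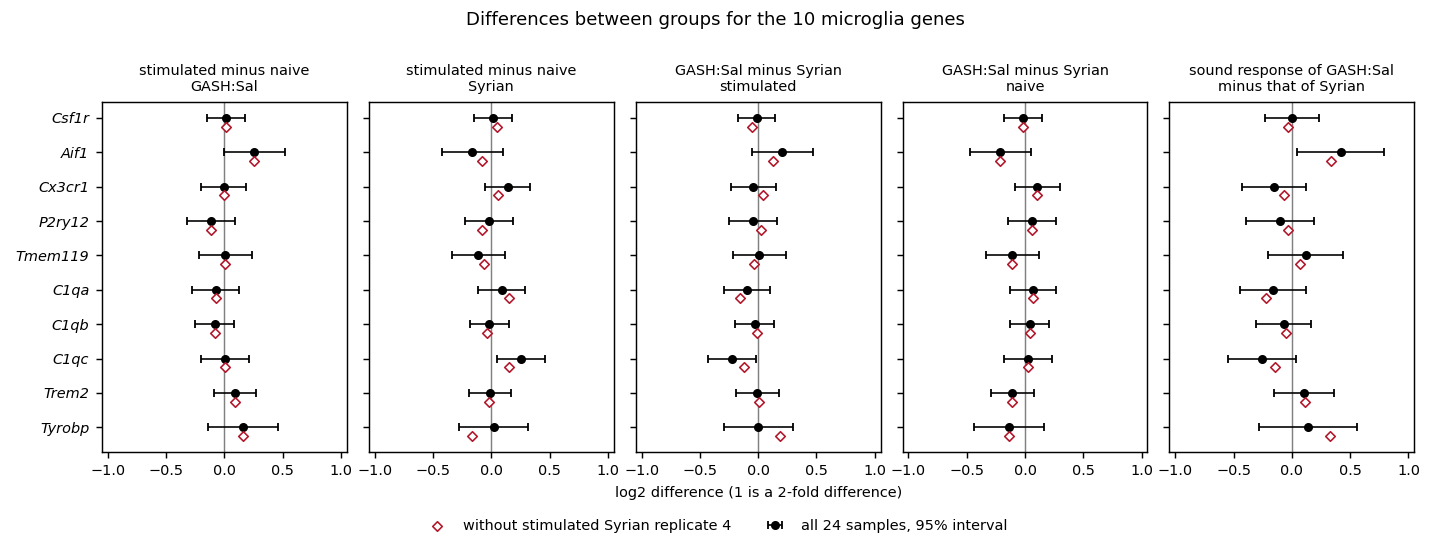
Log2 differences (horizontal axes) of the 10 microglia genes in the 5 comparisons, with 95% intervals from limma for all 24 samples (black) and the value without stimulated Syrian replicate 4 (open diamonds). The interval leaves out 0 in 3 of the 50 differences. These are C1qc for sound in Syrian hamsters and for the strains after sound, and Aif1 for the difference between responses. No interval reaches 1, a 2-fold difference in signal.

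As a group the 10 genes showed no common direction. The median of their log2 differences was 0.0042 for stimulated minus naive GASH:Sal hamsters, against 0.013 over all genes. Of the 10 genes, 6 were above 0, beside 55.8% of all genes. For stimulated minus naive Syrian hamsters the median was 0.0015, against 0.019 over all genes, and -0.030 without stimulated Syrian replicate 4. There 5 of 10 were above 0 with all samples, beside 57.5% of all genes. For GASH:Sal minus Syrian hamsters the median was -0.021 after sound and 0.0040 without sound, against -0.014 and -0.011 over all genes. Above 0 were 3 of 10 after sound (44.0% of all genes) and 5 of 10 without sound (45.8%). Without that animal the median after sound was -0.00072. Within replicates 1 to 3 the median for stimulated minus naive GASH:Sal hamsters was -0.10, and within replicates 4 to 6 it was 0.096, so the sign was not shared by the 2 sets of animals. Averaged over both strains, the 10 differences for stimulated minus naive animals ran from -0.07 (P2ry12) to 0.13 (C1qc), and averaged over both sound conditions the differences for GASH:Sal minus Syrian hamsters ran from -0.10 (C1qc) to 0.03 (Cx3cr1). Without stimulated Syrian replicate 4 they ran from -0.10 (P2ry12) to 0.09 (Aif1) for sound and from -0.07 (Tmem119) to 0.07 (Cx3cr1) for the strains.

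The order of the groups also changed from gene to gene. The highest mean of a microglia gene was in stimulated GASH:Sal hamsters for 2 genes, in naive GASH:Sal for 2, in stimulated Syrian for 4 and in naive Syrian for 2. Without stimulated Syrian replicate 4 these counts were 2, 3, 3 and 2 in the same order. By the median, stimulated Syrian hamsters were highest for 2 genes and naive Syrian for 4. With the 4 groups of each gene put in order of their means, none of the 30 pairs of neighbours passed the adjusted threshold, the lowest adjusted p being 0.829. An unadjusted p under 0.05 was found for 1 pair, C1qc in stimulated GASH:Sal and stimulated Syrian hamsters, whose 95% interval left out 0. The mean of the 10 genes per animal was 4.702 ± 0.096 in stimulated GASH:Sal, 4.677 ± 0.073 in naive GASH:Sal, 4.726 ± 0.091 in stimulated Syrian and 4.706 ± 0.064 in naive Syrian hamsters (SD, n = 6 each). Without replicate 4 the mean of stimulated Syrian hamsters was 4.698, under those of stimulated GASH:Sal and naive Syrian hamsters in place of above them. The highest animals by this mean were stimulated GASH:Sal replicate 4 (4.88), stimulated Syrian replicate 4 (4.86) and naive GASH:Sal replicate 2 (4.81), from 3 different groups.

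These animals were high through different genes. Naive GASH:Sal replicate 2 had the highest signal of all 24 samples for C1qa, C1qb and Trem2, and stimulated GASH:Sal replicate 4 for Aif1 and Tmem119. Stimulated Syrian replicate 4 was highest for Cx3cr1, P2ry12, C1qc and Tyrobp, and stimulated Syrian replicate 6 for Csf1r.

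**Figure D3:**
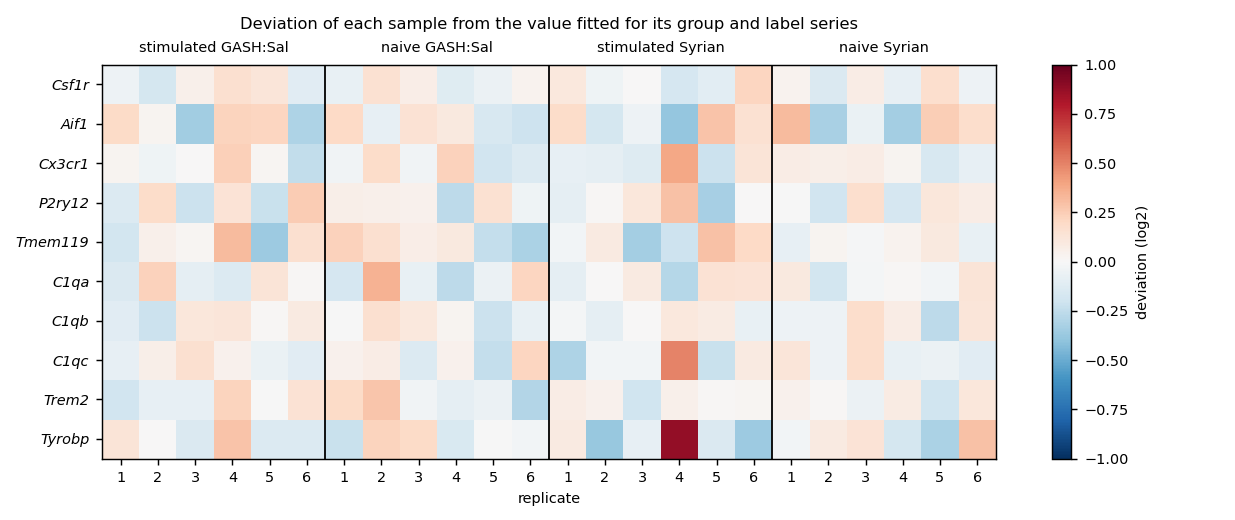
Deviation (colour, log2 units) of each of the 10 microglia genes (rows) in each sample (columns, replicates 1 to 6 of 4 groups) from the value fitted for its group and label series. No column is of 1 colour throughout, and the darkest cell is Tyrobp in stimulated Syrian replicate 4.

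Whether the 10 genes were high or low in the same animals was measured over the 24 samples after the group and the label series (replicates 1 to 3 against 4 to 6) had been removed. Of 45 pairs of the 10 genes, 28 had a Pearson r above 0, with a median of 0.05 and a range from -0.35 to 0.65. Over all pairs of the 19938 genes 51.5% had an r above 0, and the median was 0.011. Measured the same way, the 21 pairs of 7 oligodendrocyte markers had a median r of 0.32 and the 28 pairs of 8 astrocyte markers 0.27. The median was 0.21 for choroid plexus and meninges, 0.08 for neurons and 0.02 for endothelium and mural cells. It was -0.04 for border macrophages, -0.04 for monocytes and neutrophils and -0.14 for oligodendrocyte precursors. The median of the microglia genes thus lay within the range of these lists. Without stimulated Syrian replicate 4 the median of the microglia genes was 0.13, with 33 of 45 above 0.

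A single pair of the 45 passed after adjustment over the pairs. Cx3cr1 and C1qc had r = 0.65 (permutation p = 0.00061, adjusted p = 0.0274) and Spearman's rho = 0.55 (permutation p = 0.00633, adjusted p = 0.285). Without the 2 samples farthest from the median of Cx3cr1 the r was 0.49, and without stimulated Syrian replicate 4 it was 0.43 (permutation p = 0.0439, adjusted p = 0.529), so the call rested on that sample. Cx3cr1 with Tyrobp had r = 0.53 with all samples (permutation p = 0.00826, adjusted p = 0.119) and 0.16 without it.

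Pairs around Trem2 were less moved by that animal. Trem2 with Tmem119 had r = 0.56 (permutation p = 0.00479, adjusted p = 0.108) and 0.60 without the animal, and Trem2 with C1qb had 0.51 (permutation p = 0.0105, adjusted p = 0.119) and 0.51. Trem2 and its adaptor Tyrobp had r = 0.21 (permutation p = 0.315, adjusted p = 0.740). The chains of C1q, which are joined in equal numbers into 1 protein, had r = -0.05 for C1qa with C1qb, -0.10 for C1qa with C1qc and 0.21 for C1qb with C1qc. None of these passed the adjusted threshold.

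**Figure D4:**
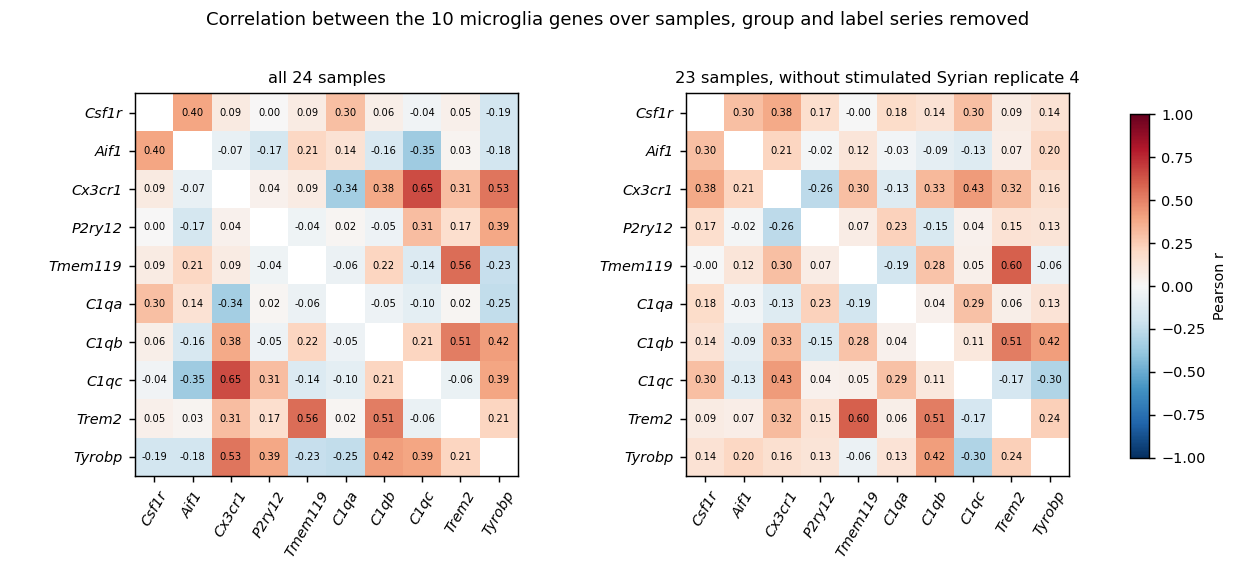
Pearson r (colour and number) between the 10 microglia genes over samples with group and label series removed, for all 24 samples (left) and without stimulated Syrian replicate 4 (right). Cx3cr1 with C1qc is 0.65 on the left and 0.43 on the right, Cx3cr1 with Tyrobp 0.53 and 0.16, and Tmem119 with Trem2 0.56 and 0.60.

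The signals that keep microglia alive or call them showed no called difference either. Csf1 and Il34 are the ligands of Csf1r, Cx3cl1 is the neuronal ligand of Cx3cr1, and Entpd1 (CD39) breaks down the ATP and ADP that P2ry12 senses. The 4 group means of Csf1 lay between 4.55 in naive GASH:Sal and 4.69 in stimulated Syrian hamsters, and those of Il34 between 5.12 in stimulated Syrian and 5.23 in naive Syrian hamsters. For Il34, stimulated minus naive Syrian hamsters gave -0.11 ± 0.08 (adjusted p = 0.822), and for Csf1, GASH:Sal minus Syrian hamsters after sound gave -0.12 ± 0.09 (adjusted p = 0.912), or -0.044 without stimulated Syrian replicate 4. With all samples these were the farthest from 0 of the differences of the 4 genes in the 5 comparisons. The difference of Entpd1 farthest from 0 between 2 groups was -0.074, for GASH:Sal minus Syrian hamsters without sound, and that of Cx3cl1 was 0.066, for the strains after sound. Of all 13 ligands and partners, 0 passed in any comparison, and at an unadjusted p under 0.05 only Adam10, the protease that sheds Cx3cl1, appeared, with 0.23 ± 0.10 for sound averaged over both strains (adjusted p = 0.638).

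Together with 5 further lists, of other homeostatic microglia genes, myeloid transcription factors and surface genes, the complement cascade, reactive microglia genes and early inflammatory genes, 101 of 110 genes were tested and 0 had an adjusted p under 0.05 in any comparison. At an unadjusted p under 0.05 the lists held 6 genes for sound in GASH:Sal hamsters (4 higher and 2 lower), 6 for sound in Syrian hamsters (4 and 2), 12 for the strains after sound (3 higher and 9 lower in GASH:Sal), 5 for the strains without sound (all lower in GASH:Sal) and 4 for the difference between responses. As shares, these were 5.94% for sound in GASH:Sal (4.46% of all genes), 5.94% for sound in Syrian hamsters (6.64%), 11.9% for the strains after sound (5.42%), 4.95% for the strains without sound (6.02%) and 3.96% for the difference between responses (3.68%). The medians of the 101 genes were -0.0091 and 0.030 for sound in GASH:Sal and in Syrian hamsters, and -0.041 and -0.019 for the strains after sound and without it. These counts and medians are of all 24 samples. Without stimulated Syrian replicate 4, the median of the other homeostatic genes for the strains after sound moved from -0.061 to -0.0025. The myeloid median moved from -0.043 to -0.020, the complement one from -0.025 to 0.0055 and the early inflammatory one from -0.065 to -0.036. The other way went the reactive genes (-0.056 to -0.067) and the ligands and partners (-0.020 to -0.028).

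**Figure D5:**
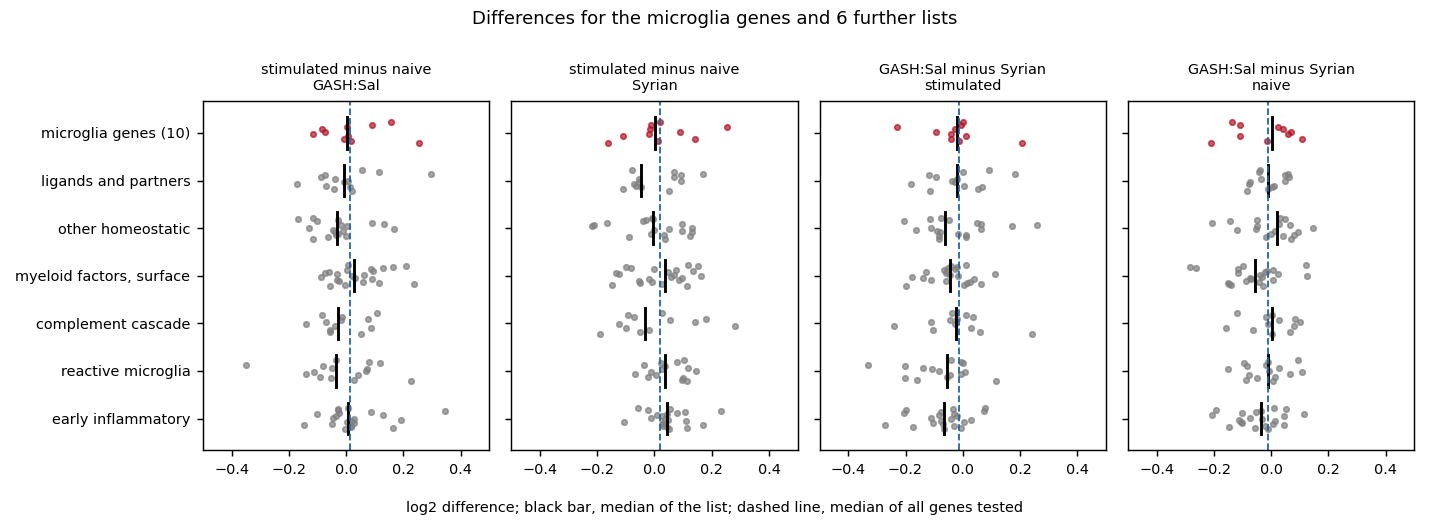
Log2 differences (horizontal axes) of single genes (points) in the 10 microglia genes (red) and 6 further lists (grey) for 4 comparisons, with the median of each list (black bars) and of all genes tested (dashed lines). The lists straddle 0 in every panel, with list medians between -0.07 and 0.04.

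Among the early inflammatory genes, Nfkbia, the NF-kappaB inhibitor that NF-kappaB itself induces, had the lowest p. Its lowest, median and highest signals were 5.55, 5.86 and 6.04 in stimulated GASH:Sal and 5.31, 5.46 and 5.84 in naive GASH:Sal hamsters, and 5.53, 5.80 and 5.93 in stimulated Syrian and 5.45, 5.55 and 5.68 in naive Syrian hamsters. Stimulated medians were thus above naive medians in both strains, with overlapping ranges. The fitted difference of Nfkbia was 0.34 ± 0.09 in GASH:Sal (adjusted p = 0.993) and 0.23 ± 0.09 in Syrian hamsters (adjusted p = 0.719). Averaged over both strains the Nfkbia difference was 0.29 ± 0.06 (adjusted p = 0.141). Nfkbia is expressed by many cell types, so its signal is not one of microglia alone. Socs3, an inhibitor of cytokine signalling, gave -0.20 ± 0.06 for GASH:Sal minus Syrian hamsters averaged over both sound conditions (adjusted p = 0.421). Il1b (-0.16) and Cd14 (-0.15) also had an unadjusted p under 0.05 there, Il1b with a mean signal at the 19.0th percentile. At that limit, 4 of 21 early inflammatory genes were lower in GASH:Sal and 0 were higher. Of the 101 genes, 11 (10.9%) had such a p there, 10 of them lower in GASH:Sal, against 7.99% of all genes.

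Of the other homeostatic genes, Tgfbr2, the receptor for the cytokine that maintains microglia, gave -0.22 ± 0.07 for stimulated minus naive Syrian hamsters (adjusted p = 0.719) and Gpr84 gave 0.26 ± 0.09 for GASH:Sal minus Syrian hamsters after sound (adjusted p = 0.887). In that comparison Sparc of the same list had the opposite sign, with -0.20 ± 0.08 (adjusted p = 0.891), and the median of the list was -0.06, or -0.0025 without stimulated Syrian replicate 4. C5ar1, the receptor for complement C5a, gave 0.28 ± 0.10 for stimulated minus naive Syrian hamsters (adjusted p = 0.719). Its signals ran from 3.51 to 4.21 in stimulated Syrian hamsters (SD 0.28), against an SD of 0.16 in naive Syrian hamsters. The differences of Tgfbr2, Gpr84, Sparc and C5ar1 are of all 24 samples, stimulated Syrian replicate 4 included. Of the reactive genes, Cd63 gave -0.35 ± 0.14 for stimulated minus naive GASH:Sal hamsters (adjusted p = 0.999), whereas Lpl, lipoprotein lipase, gave 0.23 ± 0.10 (adjusted p = 0.999). The mean signal of Cd63 was low, at the 8.0th percentile of all genes, and that of Lpl stood at the 35.9th. Cd84, a surface gene of leukocytes, had signals of 2.94 to 3.26 in naive GASH:Sal and 3.33 to 3.47 in naive Syrian hamsters, which did not overlap, with a difference of -0.26 ± 0.09 (adjusted p = 0.735). The mean signal of Cd84 was low too, at percentile 14.1 of all genes. Over the 4 comparisons of 2 groups, it was the 1 gene of the 101 with groups that did not overlap. The share of all genes was 0.271% in that comparison and from 0.226% to 0.291% over the 4.

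Macrophages and blood cells that the dissected tissue could hold were looked at with lists of their own. Of 7 border macrophage genes, 0 passed in any comparison and all 7 lay under the median signal, while 6 of 7 were above 0 for stimulated minus naive GASH:Sal hamsters (median 0.08) and 5 of 7 in Syrian hamsters (median 0.05, or 0.010 without stimulated Syrian replicate 4). Of all genes, 55.8% were above 0 in GASH:Sal and 57.5% in Syrian hamsters. Mrc1, the mannose receptor of these cells, had group means of 4.11 in stimulated GASH:Sal, 3.87 in naive GASH:Sal, 4.09 in stimulated Syrian and 3.93 in naive Syrian hamsters, and a difference averaged over both strains of 0.20 ± 0.05 (adjusted p = 0.321). Of 6 monocyte and neutrophil genes tested, 0 passed, and all 6 lay under the median signal. Oligodendrocyte markers had a median of 0.16 for stimulated minus naive GASH:Sal hamsters, with 6 of 7 above 0, and of 0.10 in Syrian hamsters, also with 6 of 7 above 0 (0.075 without stimulated Syrian replicate 4). Averaged over both strains, 5 of 7 oligodendrocyte markers had an unadjusted p under 0.05, all higher in stimulated animals, beside 7.39% of all genes, and 0 of 7 passed the adjusted threshold in any comparison. The part of these cells in the values of the microglia genes was not tested.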

How the data were processed

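The authors deposited log2 signals, 1 for each probe set and animal, made with RMA, a method that corrects background, normalises arrays and summarises probes (no version is given in the submitters' processing notes). The probes were designed for mouse, so a mismatch to hamster RNA can weaken a gene's signal. Of 35556 probe sets, 21789 carried 1 gene symbol in the platform's annotation, and the highest-mean one was kept per gene. Differences were estimated from all 24 samples in limma 3.58.1 under R 4.3.3, with terms for the 4 groups and the label series (replicates 1 to 3 against 4 to 6, whose labels are styled differently, for a reason not given in the sources used here). P-values are two-sided, adjusted by Benjamini-Hochberg over 19938 genes with a threshold of 0.05, and measure the spread between animals. Correlations used residuals and 100000 permutations. The scripts were tested on simulated data. All 10 genes were named in every comparison, with Csf1, Il34, Cx3cl1 and Entpd1. From the other lists, up to 3 genes per list and comparison could be named, those with the largest differences at an unadjusted p under 0.05. Members and lists were chosen with earlier results of these data known. Arrays hold no sequencing depth, and their number sets the precision. Alternatives covered scaling, probe sets, filters, weights, label series, the replicate block and single samples left out. Replicate numbers were not used to pair the samples in the main fit, and 0 columns of per-sample values were left out.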

Additional observations from a re-analysis of the deposited data

Results flagged for a closer look

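Tyrobp in stimulated Syrian replicate 4 had a signal of 5.65, separated from the next highest animal of its group (4.72) by more than 0.625 of the range of the 6 animals. It was the 1 value flagged among 40 sets of 6 samples, formed by 10 genes in 4 groups, and chance flags about 1 in 20 such sets. Over all genes, 20 had a larger difference than Tyrobp between this array and the other 5 stimulated Syrian animals.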

How the results depend on the processing

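The count of 0 microglia genes past the threshold held in all 7 comparisons under every alternative run, and the lowest adjusted p of a microglia gene was 0.437. Of 50 single differences, 18 kept their sign throughout, among them Aif1 in all 5 comparisons and C1qc for sound in Syrian hamsters and for the strains after sound. The other differences were at most 0.25 in size before the change, and the cause of each change of sign was not tested. Arrays give no depth, and 6 of the 10 genes lie under the median signal. The pair left out below, stimulated Syrian 4 and naive GASH:Sal 6, was chosen after seeing the data.

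For stimulated minus naive GASH:Sal, Csf1r was -0.088, Tmem119 -0.18 and Trem2 -0.17 within replicates 1 to 3, with a median over the 10 genes of -0.10. Within replicates 4 to 6, Cx3cr1 was 0.033, C1qb 0.073 and C1qc -0.049, with a median of 0.096. Tmem119 was -0.087 with array weights, -0.0070 with median centring, -0.0078 with quantile normalization and -0.062 without the pair, and C1qc was -0.013 with median centring and -0.010 with quantile normalization. With 1 sample left out, C1qc ranged from -0.049 to 0.047, Csf1r from -0.019 to 0.052, Cx3cr1 from -0.057 to 0.044 and Tmem119 from -0.060 to 0.084.

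For stimulated minus naive Syrian hamsters, Cx3cr1 was -0.029, P2ry12 0.0032 and Tyrobp -0.17 within replicates 1 to 3. Within replicates 4 to 6, Csf1r was -0.020, C1qb 0.043 and Trem2 0.016. Tyrobp was -0.11 with array weights and -0.17 without the pair. With 1 sample left out, C1qb ranged from -0.072 to 0.020, Csf1r from -0.031 to 0.050, P2ry12 from -0.079 to 0.053, Trem2 from -0.053 to 0.031 and Tyrobp from -0.17 (without stimulated Syrian 4) to 0.098.

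For GASH:Sal minus Syrian hamsters after sound, Cx3cr1 was 0.053 within replicates 1 to 3, 0.010 with array weights and 0.037 without the pair. Within replicates 4 to 6, Csf1r was 0.066, Tmem119 -0.046, P2ry12 0.028, C1qb 0.0065, Trem2 0.086 and Tyrobp -0.12. Tmem119 was -0.040 with array weights and -0.038 without the pair. P2ry12 was 0.021 and Trem2 0.0013 without the pair. Csf1r was 0.0099 and Trem2 0.018 with median centring, and Csf1r was 0.0061 and Trem2 0.0012 with quantile normalization. With 1 sample left out, C1qb ranged from -0.053 to 0.018, Csf1r from -0.050 to 0.031, Cx3cr1 from -0.092 to 0.039, P2ry12 from -0.11 to 0.021, Tmem119 from -0.063 to 0.086, Trem2 from -0.052 to 0.035 and Tyrobp from -0.078 to 0.19.

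For GASH:Sal minus Syrian hamsters without sound, Csf1r was 0.042, Tmem119 0.067, C1qc -0.064 and Trem2 0.036 within replicates 1 to 3. Within replicates 4 to 6, P2ry12 was -0.00076, C1qa -0.0019 and C1qb -0.023. C1qc was -0.026 with array weights and -0.027 without the pair, and Csf1r was 0.016 with median centring and 0.014 with quantile normalization. With 1 sample left out, C1qa ranged from -0.0036 to 0.13, C1qb from -0.014 to 0.086, C1qc from -0.021 to 0.074 and Csf1r from -0.048 to 0.019.

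For the difference between responses, Csf1r was -0.14, Tmem119 -0.0019, C1qc 0.0020 and Trem2 -0.13 within replicates 1 to 3, and P2ry12 was 0.029 and C1qb 0.030 within replicates 4 to 6. Csf1r was -0.019 with array weights, -0.0057 with median centring, -0.0075 with quantile normalization and -0.029 without the pair, and Tmem119 was -0.016 with array weights. With 1 sample left out, Csf1r ranged from -0.034 to 0.047.

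The number of genes called among all genes changed with the setting in several comparisons. These counts cannot be set against those of the microglia genes, a set too small for such low call rates to show in it. For sound in GASH:Sal hamsters 0 genes were called, 7 within replicates 1 to 3, 1 each with array weights, with trend and robust settings and with the median filter, and 0 to 1 with 1 sample left out. For sound in Syrian hamsters 0 genes were called, and 5 within replicates 1 to 3. For the strains without sound 0 genes were called, 18 with array weights, 64 without the pair, 1 with median centring, 2 with the median filter, and 0 to 13 with 1 sample left out (13 without naive GASH:Sal 6). For sound averaged over both strains 1 gene was called, 444 within replicates 1 to 3, 0 within replicates 4 to 6, 14 with array weights, 2 without the pair, 0 at an unadjusted p with 2-fold, and 1 to 12 with 1 sample left out (12 without stimulated GASH:Sal 6). For the strains averaged over both sound conditions 2 genes were called, 19 with array weights, 36 without the pair, 5 with median centring, 4 with quantile normalization, 0 within either set of replicates, without the label series, with every probe set or at an unadjusted p with 2-fold, and 0 to 36 with 1 sample left out (36 without naive GASH:Sal 6). An unadjusted p with 1.5-fold gave 5 genes for sound in GASH:Sal, 2 for sound in Syrian hamsters, 4 and 5 for the strains after sound and without it, 10 for the difference between responses and 1 for the averaged strains.

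Whether the replicate numbers pair the samples was not settled, since samples with different numbers were not compared. Of 36 pairs with the same number, 12 correlated above 0.1 in deviations from the group mean. In deviations from group and label series, 2 did. A replicate block left 0 genes called for the averaged strains, against 2, and 0 microglia genes in each comparison. The number of correlated pairs past the threshold was 0 with median centring and 0 without stimulated Syrian replicate 4, against 1.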

Other observations

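Genes outside the lists were ranked by the Pearson r of their residuals with the mean of the 10 microglia genes over the 24 samples. The highest were Birc5 (r = 0.81, rho = 0.58), an inhibitor of apoptosis, and Mki67 (r = 0.77, rho = 0.72), both used as markers of dividing cells, followed by Ceacam20 (r = 0.77, rho = 0.79), 1700029I15Rik (r = 0.76) and Tafa3 (r = 0.75). They were the highest of 19938 genes and were picked for that, so that r values of this size carry no test. Ghrhr, Gpr160, Mir199a-1, Cabp2 and Steap3 completed the first 10, each with r = 0.74.

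Among genes of the lists, a far smaller pool to pick from, the highest r with the same mean were lower. Cd84 (r = 0.51), Ikzf1 (0.51), P2rx7 (0.50), Selplg (0.48) and Tlr4 (0.46) are genes of microglia or other leukocytes. Itgax (0.45) and Ccl2 (0.44) followed, together with Ttr of the choroid plexus (0.47), the neuronal gene Slc17a6 (0.45) and the oligodendrocyte gene Mog (0.43). Without stimulated Syrian replicate 4, r was 0.67 for Cd84, 0.57 for P2rx7, 0.50 for Ttr, 0.49 for Ccl2 and 0.40 for Tlr4. It was then 0.39 for Itgax, 0.38 for Slc17a6, 0.38 for Ikzf1, 0.36 for Selplg and 0.26 for Mog. Among genes of the lists, those with the highest r over all 24 samples were thus of several cell types.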
